A study of Mus musculus with 6 samples.

Results

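Transcripts of 10 mouse proteoglycan genes were followed in cumulus-oocyte complexes through the hours around ovulation. They were the syndecan genes Sdc1, Sdc2, Sdc3 and Sdc4, the glypican genes Gpc1 and Gpc4, the small leucine-rich proteoglycan genes Dcn (decorin), Bgn (biglycan) and Lum (lumican), and Hspg2 (perlecan). Members were the probe sets whose only gene symbol in the platform annotation was one of these names, which gave 24 of 45037 non-control probe sets. A probe set is a group of array oligonucleotides read out as 1 value. The study hybridised biotin-labelled cRNA from 6 pools of complexes to arrays, 2 arrays in each of 3 groups. The mice were immature wild-type females, and every group had received equine chorionic gonadotropin (eCG), which drives follicle growth, for 48 h. The group without human chorionic gonadotropin (hCG, a substitute for the ovulatory luteinising hormone surge) was taken by puncture of ovaries and is labelled expanded, although expansion normally follows the surge. The hCG 8h and hCG 16h groups had then received hCG for 8 h and 16 h, and their protocols give the oviduct as the place of collection, so hCG and place of collection cannot be told apart in the comparisons with the group without hCG. Because 8 h is early for ovulation in mice, the place given for the hCG 8h group is in doubt, and a difference in place between 8 h and 16 h cannot be told apart from time either, if there was one. Strain, exact age and number of animals per pool are not given in the sources used here. Nothing says that the pools of a group came from separate animals, so each p-value reflects the variation among these samples alone, which may be technical.

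Proteoglycans are proteins that carry long sulfated sugar chains, such as heparan sulfate or chondroitin and dermatan sulfate. Syndecans cross the cell membrane and glypicans are tethered to it by a lipid anchor, and both bind growth factors, matrix proteins and protease inhibitors through their heparan sulfate. Decorin, biglycan and lumican are secreted and bind collagen, and perlecan is a large heparan sulfate proteoglycan of basement membranes. In the follicle, granulosa cells make heparan sulfate proteoglycans that bind antithrombin, and the cumulus matrix that forms after the ovulatory surge is built on hyaluronan and the chondroitin sulfate proteoglycan versican.

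The deposited values were log2 intensities, and the depth of an array has no equivalent of a read count, so the 2 arrays per group set the precision. Array medians lay between 6.14 and 6.27. Pearson's r between the arrays of a group, across probe sets, was 0.991 to 0.996, against 0.943 to 0.978 between groups. Of the markers for the labelled cells, all 14 oocyte genes and all 9 cumulus and granulosa genes with a named probe set passed the limit for dim probe sets (a mean of 5.62 over the 6 arrays). Probe sets under that limit were not tested. Because probe sets differ in how strongly they bind, levels are compared only between arrays for the same probe set, never between genes.

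Of the 24 member probe sets, 21 passed the limit, and they represented 9 of the 10 genes. The brightest probe set spoke for its gene. Each change is given as the later minus the earlier mean of log2 intensity ± SE, fitted with limma on 2 arrays per group, and it was called at a Benjamini-Hochberg adjusted p under 0.05 over all 27022 tested probe sets. At 8 h after hCG, 3 of the 9 genes had risen over the group without hCG (Sdc1, Gpc4 and Gpc1) and 1 had fallen (Dcn), where 16.9% of all 13559 tested genes rose and 20.5% fell. From 8 h to 16 h, 3 rose (Sdc4, Gpc1 and Sdc3) and 1 fell (Dcn), where 11.8% of all genes rose and 9.12% fell. At 16 h against no hCG, 5 were higher (Sdc1, Gpc1, Sdc4, Gpc4 and Sdc3) and 1 lower (Dcn), where 20.8% of all genes were higher and 20.8% lower. Sdc2, Bgn and Hspg2 were called in none of the 3 comparisons by their brightest probe set. Their unadjusted limma p-values ran from 0.131 to 0.834, with none under 0.05. Over probe sets, 9 of 21 were called in the first comparison against 33.9% of all, 8 in the second against 18.2% and 12 in the third against 37.3%. The median change over the 9 genes was 0.22, 0.11 and 1.40 in the 3 comparisons, against −0.02, 0.01 and −0.02 over all tested genes. The members were chosen with earlier results of these data known, so these counts and medians describe the chosen genes only. The comparisons share arrays, so their values are set side by side and not treated as separate evidence.

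**Figure D1:**
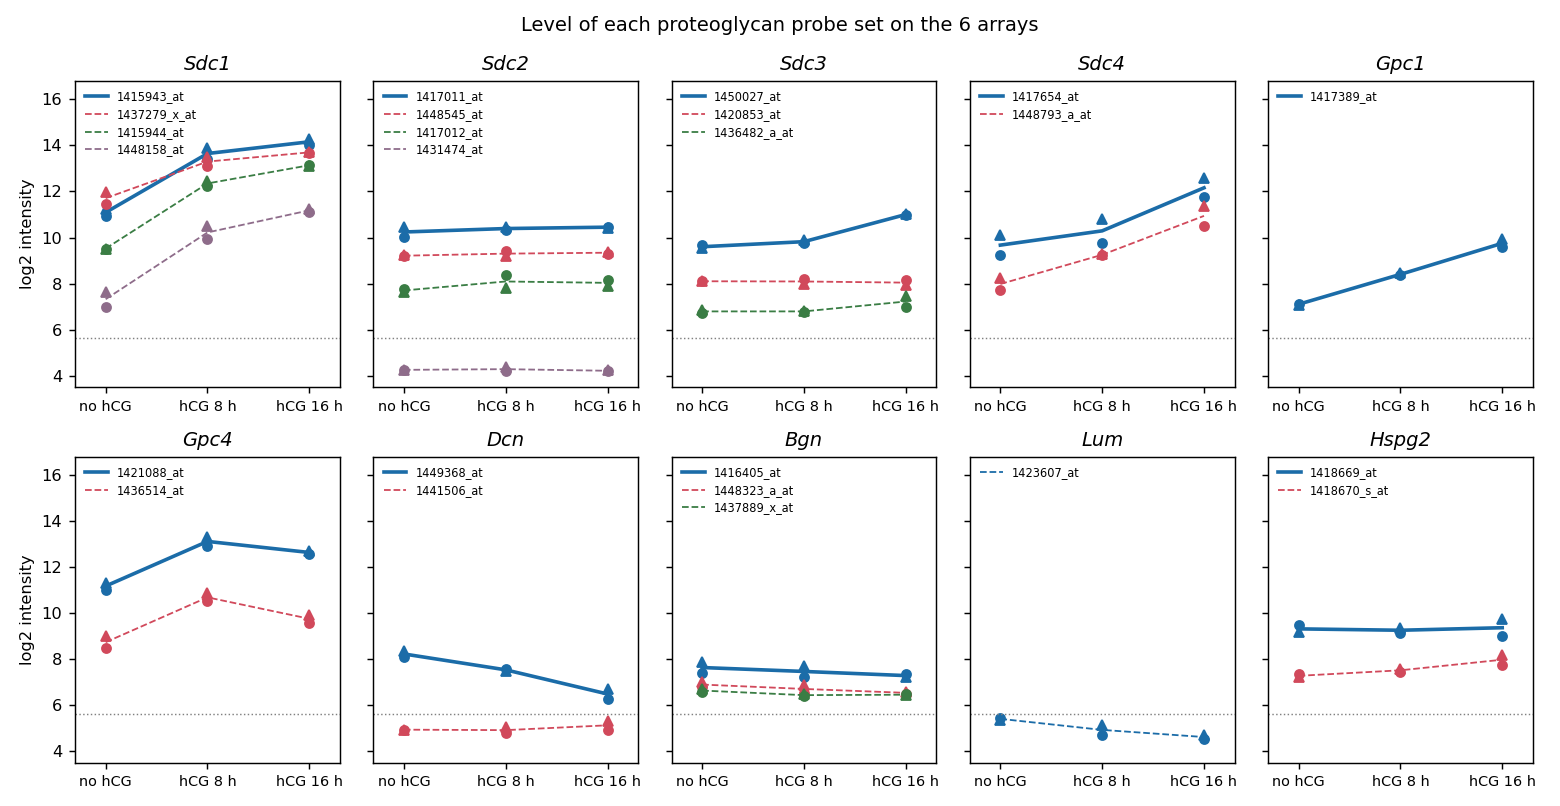
Log2 intensity of every member probe set on each array, 1 panel per gene, with circles for replicate 1, triangles for replicate 2 and lines through the group means. Thick lines mark the probe set that speaks for the gene, and the dotted line is the limit of 5.62 under which probe sets were not tested. Sdc1 climbs mostly by 8 h, Sdc4 and Sdc3 mostly after it, Gpc1 in both intervals, and Dcn declines in both.

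Sdc1 had the largest change of the 9 tested members at 8 h, by brightest probe sets. Syndecan 1 is the syndecan typical of epithelial and plasma cells. Its log2 intensity on the brightest probe set was 10.92 and 11.26 without hCG, 13.43 and 13.88 at 8 h, and 14.04 and 14.28 at 16 h. The 3 groups did not overlap, and the gap lay between no hCG and both later times. The rise by 8 h was 2.56 ± 0.20, or 5.89-fold (adjusted p = 1.25e-05). The further difference to 16 h, 0.51 ± 0.20, was not called (adjusted p = 0.126). The net change at 16 h was 3.06 ± 0.20, or 8.37-fold (adjusted p = 3.04e-06). All 4 Sdc1 probe sets rose by 8 h, by 1.59 to 2.90, and were higher at 16 h than without hCG by 1.99 to 3.86. For the step from 8 h to 16 h they differed in call. The probe sets 1415944_at and 1448158_at rose by 0.79 ± 0.15 and 0.96 ± 0.24 (adjusted p = 0.00588 and 0.023), and the other two, which are the brighter ones, were not called. The smallest changes were those of 1437279_x_at, a probe set of a design class that can also bind other transcripts.

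Sdc4 rose later. Syndecan 4 sits in focal adhesions and signals through protein kinase C alpha. Its brightest probe set read 9.23 and 10.11 without hCG, 9.77 and 10.81 at 8 h, and 11.75 and 12.57 at 16 h. The first and second groups overlapped, whereas both 16 h arrays lay above all others. The difference at 8 h, 0.62 ± 0.39, was not called (adjusted p = 0.274, with a 95% interval from −0.26 to 1.5). The rise from 8 h to 16 h was 1.87 ± 0.39, or 3.65-fold (adjusted p = 0.00922), and the net change 2.49 ± 0.39, or 5.62-fold (adjusted p = 0.000799). The second Sdc4 probe set read 7.73 and 8.24 without hCG, 9.22 and 9.28 at 8 h, and 10.52 and 11.36 at 16 h. Its groups did not overlap, and it was called at 8 h as well, at 1.26 ± 0.27 (adjusted p = 0.00505), then by 1.69 ± 0.27 from 8 h to 16 h (adjusted p = 0.00196). Both probe sets were called for the later rise, and they differed in call for the earlier one.

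On its brightest probe set, the arrays of a group differed more for Sdc4 than the median probe set did. Replicate 2 exceeded replicate 1 by 0.87, 1.04 and 0.83 in the 3 groups on the brightest Sdc4 probe set, and by 0.50, 0.06 and 0.84 on the other, where the 8 h pair lay closer than the median. The median size of that difference over all tested probe sets was 0.22, 0.15 and 0.17. The call of Sdc4 from 8 h to 16 h rested on single arrays. With replicate 1 of the hCG 8h group left out the change was 1.35 (adjusted p = 0.0663), and with replicate 2 of the hCG 16h group left out it was 1.46 (adjusted p = 0.121), neither of them called. Over 15 alternatives the adjusted p ran from 6.77e-05 to 0.121.

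Sdc3, a syndecan best known from the nervous system, was called on 1 of its 3 probe sets only. The brightest, 1450027_at, read 9.66 and 9.55 without hCG, 9.75 and 9.89 at 8 h, and 10.97 and 11.03 at 16 h. Arrays of the first and second groups lay close together and the 16 h pair stood clear above them. The change was 0.22 ± 0.15 at 8 h, which was not called (adjusted p = 0.324), and 1.18 ± 0.15, or 2.27-fold, from 8 h to 16 h (adjusted p = 0.000565). The probe set 1420853_at gave −0.05 for that step, with a 95% interval from −0.42 to 0.31, and 1436482_a_at gave 0.42, from 0.01 to 0.84, neither of them called. The interval of 1450027_at ran from 0.84 to 1.52, and the difference between the probe sets was not tested. With the mean of the 3 probe sets in place of the brightest, the step was 0.52 (adjusted p = 0.0217, the highest of 15 alternatives, with 0.000202 the lowest).

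Sdc2, the syndecan typical of mesenchymal cells, showed no called change on any of its 3 tested probe sets. The brightest read 10.04 and 10.44 without hCG, 10.33 and 10.45 at 8 h, and 10.46 and 10.43 at 16 h. All 6 arrays thus lay between 10.04 and 10.46, and the groups overlapped. At 16 h against no hCG the difference was 0.21 ± 0.17, with a 95% interval from −0.18 to 0.60. The widest intervals of its probe sets were those of 1417012_at, which reached up to 0.83 at 8 h and 0.78 at 16 h against no hCG. Its remaining probe set had readings of 4.18 to 4.37 and was too dim to test.

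**Figure D2:**
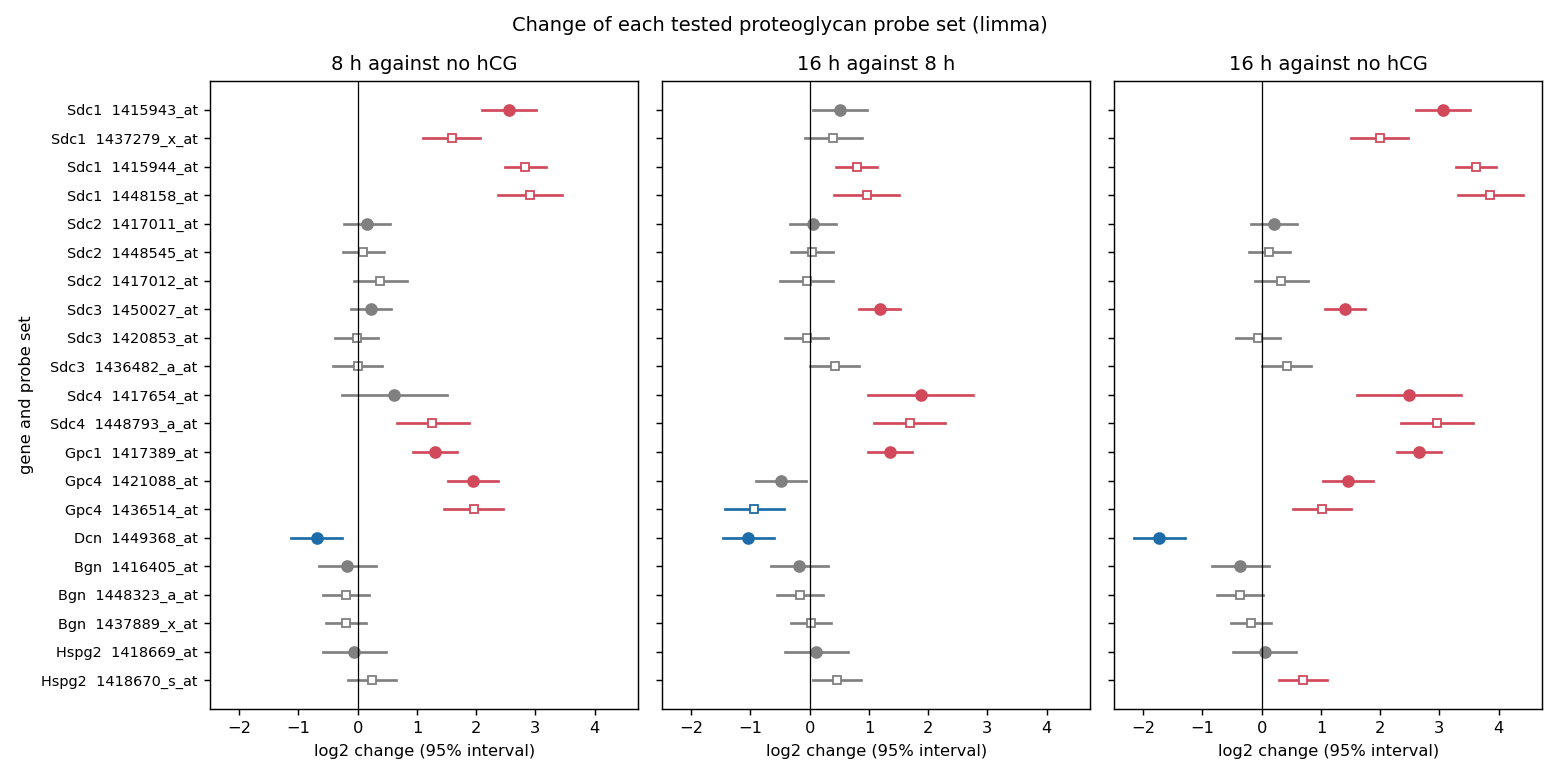
Log2 change with its 95% interval for each of the 21 tested member probe sets in the 3 comparisons (limma, 2 arrays per group). Filled circles are the probe set that speaks for the gene, open squares its other probe sets, red is called higher, blue called lower and grey not called. Sdc1 probe sets sit between 1.59 and 2.90 at 8 h, those of Sdc2 and Bgn span 0 throughout, and of the 3 Sdc3 probe sets 1450027_at is the one called at 16 h.

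Both glypican members rose by 8 h and then parted. The other tested glypican genes, Gpc3 and Gpc6, gave 0.12 ± 0.17 and 0.06 ± 0.19 by 8 h and were called in no comparison. Glypican 4 and glypican 1 carry heparan sulfate close to the membrane and act as co-receptors of fibroblast growth factors, Wnt proteins and BMPs. Gpc4 read 11.03 and 11.33 without hCG, 12.94 and 13.31 at 8 h, and 12.57 and 12.71 at 16 h on its brightest probe set. It was highest at 8 h, with the 16 h arrays between the other groups. The rise by 8 h was 1.94 ± 0.18, or 3.85-fold (adjusted p = 3.59e-05). The difference from 8 h to 16 h was −0.48 ± 0.18 and not called (adjusted p = 0.107), whereas the second probe set fell by 0.94 ± 0.22 (adjusted p = 0.0158). At 16 h both probe sets were still above the group without hCG, by 1.46 ± 0.18 and 1.02 ± 0.22 (adjusted p = 0.000196 and 0.00492).

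Gpc1 rose in both intervals. Its single probe set read 7.13 and 7.07 without hCG, 8.36 and 8.45 at 8 h, and 9.58 and 9.92 at 16 h. The groups did not overlap and stood in the order of time after hCG. The rise was 1.30 ± 0.17, or 2.46-fold, by 8 h (adjusted p = 0.000243) and 1.35 ± 0.17, or 2.55-fold, from 8 h to 16 h (adjusted p = 0.000467). The net change was 2.65 ± 0.17, or 6.29-fold (adjusted p = 2.17e-06). Gpc1 was called in all 3 comparisons under each of 15 alternatives, with changes of 1.26 to 1.35 by 8 h and 1.18 to 1.52 from 8 h to 16 h.

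The promoters of 4 of the 5 members higher at 16 h, those with an entry in the RefSeq promoter table (build GRCm38.p6), are shown for the sequence context of these changes, as the 250 bases before the annotated start, 5′ to 3′. Capitals mark matches, on either strand, to GGGCGG (a GC box), TGANTCA (AP-1), TGACG (the core of a cAMP response element), AAGGTCA (an SF-1 site) and TATAAN (TATA-like, added after the sequences had been seen). Gpc1 and Dcn were not matched in that table.
Sdc1, chr12:8771146-8771395, plus strand: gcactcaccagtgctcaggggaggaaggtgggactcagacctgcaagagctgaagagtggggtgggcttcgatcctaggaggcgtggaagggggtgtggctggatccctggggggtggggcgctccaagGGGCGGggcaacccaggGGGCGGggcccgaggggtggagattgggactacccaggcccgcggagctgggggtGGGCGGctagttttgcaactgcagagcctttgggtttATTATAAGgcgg
Sdc3, chr4:130792287-130792536, plus strand: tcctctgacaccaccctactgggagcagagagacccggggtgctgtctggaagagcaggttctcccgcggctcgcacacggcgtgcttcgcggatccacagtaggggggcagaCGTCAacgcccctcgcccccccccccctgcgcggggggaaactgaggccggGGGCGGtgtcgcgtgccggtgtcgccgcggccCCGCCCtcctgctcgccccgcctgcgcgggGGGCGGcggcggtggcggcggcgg
Sdc4, chr2:164443189-164443438, minus strand: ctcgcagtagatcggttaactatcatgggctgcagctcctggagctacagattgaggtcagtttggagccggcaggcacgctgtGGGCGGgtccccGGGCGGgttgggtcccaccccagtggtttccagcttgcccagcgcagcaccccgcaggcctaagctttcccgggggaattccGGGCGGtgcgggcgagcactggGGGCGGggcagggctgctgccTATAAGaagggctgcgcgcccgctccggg
Gpc4, chrX:52164924-52165173, minus strand: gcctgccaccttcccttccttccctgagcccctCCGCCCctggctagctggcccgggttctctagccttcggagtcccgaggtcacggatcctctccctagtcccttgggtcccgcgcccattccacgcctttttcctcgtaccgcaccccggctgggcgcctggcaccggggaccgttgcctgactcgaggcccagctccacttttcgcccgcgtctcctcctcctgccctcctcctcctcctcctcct

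All 4 windows were rich in G and C, at 66.0% for Sdc1, 76.4% for Sdc3, 68.0% for Sdc4 and 68.4% for Gpc4, against a median of 52.4% over 32851 promoters. GC boxes numbered 3 in Sdc1, 3 in Sdc3, 4 in Sdc4 and 1 in Gpc4, and 32.7% of all promoter windows of this length hold at least 1. TATA-like matches were present in Sdc1, as 2 overlapping matches on opposite strands, and in Sdc4, as 1 match, with 22.7% of all windows holding one. The windows of Bgn and Hspg2, not called by their brightest probe sets, held 64.4% and 70.0% G and C and 3 and 5 GC boxes, so both features are also found in members that did not rise by that measure. The cAMP response core occurred once, in Sdc3 (17.8% of all windows), and AP-1 (6.75%) and SF-1 (4.08%) matches in none of the 4. A match is a string of letters, and its use as a binding site was not tested.

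Among the secreted proteoglycans, Dcn fell, while Bgn and the brightest Hspg2 probe set showed no called change. Decorin binds collagen fibrils and transforming growth factor beta and is made by fibroblasts and theca. Its tested probe set read 8.08 and 8.37 without hCG, 7.59 and 7.49 at 8 h, and 6.27 and 6.72 at 16 h. The groups did not overlap and stood in descending order. Dcn fell by 0.69 ± 0.19 by 8 h (adjusted p = 0.02) and by 1.04 ± 0.19 from 8 h to 16 h (adjusted p = 0.00457). The net fall was 1.73 ± 0.19 on the log2 scale, a level 3.32-fold lower at 16 h (adjusted p = 8.10e-05). At 8 h the change was −0.54 (adjusted p = 0.0759) with the second array without hCG removed, and −0.74 (0.0698) or −0.64 (0.116) with the first or second hCG 8h array removed. These values lie within the 95% interval of the full fit (−1.12 to −0.26) but were not called, and 15 alternatives gave 0.0123 to 0.116. From 8 h to 16 h the change was −0.82 and not called with the first hCG 16h array removed (0.0535, with 0.00146 the lowest alternative), whereas the net fall stayed called under all 15. A second Dcn probe set read 4.80 to 5.32 and was too dim to test.

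Bgn, whose product biglycan is decorin's closest relative, read 7.40 and 7.89 without hCG, 7.23 and 7.70 at 8 h, and 7.35 and 7.22 at 16 h. The groups overlapped, and none of its 3 probe sets was called in any comparison. The net difference on the brightest was −0.36 ± 0.22, with a 95% interval from −0.84 to 0.13. Lum was too dim to test on its single probe set. It read 5.46 and 5.37 without hCG, 4.69 and 5.16 at 8 h, and 4.53 and 4.71 at 16 h, all under the limit. Without a filter on dim probe sets its net change was −0.79 ± 0.18 (adjusted p = 0.0106), a value of uncertain size at such readings.

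Hspg2 probe sets disagreed. The brightest read 9.47 and 9.17 without hCG, 9.15 and 9.37 at 8 h, and 9.01 and 9.73 at 16 h, with overlapping groups and a net change of 0.05 ± 0.24 (adjusted p = 0.899). Its 16 h arrays held both the lowest and the highest reading of the 6. The second, 1418670_s_at, read 7.34 and 7.22, then 7.45 and 7.59, then 7.75 and 8.20, and its net rise of 0.70 ± 0.18 was called (adjusted p = 0.0134). Probe sets of this design class can bind several transcripts. For neither probe set was a change between neighbouring times called.

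Markers of other cells moved over the same arrays. In a bulk pool, fewer cells of a type and less RNA per cell cannot be told apart. Of 14 tested leukocyte genes, 1 rose by 8 h and 12 rose from 8 h to 16 h, beside the later rises of Sdc4, Sdc3 and Gpc1. Over all tested genes, 16.9% rose by 8 h and 11.8% from 8 h to 16 h. The summed linear intensity of the 15 leukocyte genes with a probe set was 4399 to 4584 without hCG, 3822 to 4032 at 8 h and 9350 to 9404 at 16 h. Only Itgam among them was under the dim limit. Oviduct epithelium genes gave sums of 3060 to 3407, 1862 to 1944 and 9243 to 10861 over 8 genes, of which Foxj1 and Pax8 were dim. These sums are of linear intensity, so the brightest genes weigh most in them. Of 6 tested, 4 rose from 8 h to 16 h (Krt8, Krt18, Ovgp1 and Cdh1), while 2 fell by 8 h, when 20.5% of all tested genes fell. Epcam and Muc1 gave 0.15 ± 0.22 and 0.28 ± 0.21 from 8 h to 16 h, not called. At 16 h against no hCG 3 were higher, where 20.8% of all genes were, and Cdh1 gave −0.22 ± 0.20, not called. Syndecans are also made by epithelia and leukocytes, and the part of either in the rises at 8 h or at 16 h was not tested. By 8 h, the sums of both lists were lower than without hCG. Of the 14 tested leukocyte genes, 0 were called lower by then, and their median change was −0.02, as over all tested genes.

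The fall of Dcn came with a fall of theca and stroma markers. Of 8 tested, 4 fell by 8 h, 3 fell from 8 h to 16 h, and 6 were lower at 16 h against no hCG. Over all tested genes, 20.5%, 9.12% and 20.8% were lower in these comparisons. The summed intensity of 10 such genes was 3534 to 3753 without hCG, 1830 to 2441 at 8 h and 1206 to 1303 at 16 h, with Myh11 and Tcf21 dim. The part of these cells in the fall of Dcn was not tested. Sums of 14 oocyte genes were 47969 to 58099, then 10795 to 12072, then 15173 to 18102, and those of 9 cumulus and granulosa genes 90973 to 94276, then 45458 to 56085, then 37063 to 41871. By 8 h, all 14 oocyte genes and 5 of the 9 cumulus and granulosa genes fell. At 16 h against no hCG, 14 and 7 were lower. From 8 h to 16 h, 5 oocyte genes fell and 5 rose, and 3 cumulus and granulosa genes fell. Endothelial genes summed to 412 to 437, then 645 to 740, then 729 to 740, with 5 of 8 dim. Of the other three, Cdh5 rose by 2.86 ± 0.25 by 8 h, whereas Kdr and Cldn5 gave 0.28 ± 0.15 and 0.24 ± 0.17, not called.

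Genes that build and use the sugar chains of the members were read against all tested genes, of which 37.4% were called at 8 h, 20.9% from 8 h to 16 h and 41.6% at 16 h against no hCG, in either direction. Nothing particular to a list is claimed from these shares. Of 19 tested genes of heparan sulfate synthesis and editing, 3 rose and 4 fell by 8 h, 6 rose from 8 h to 16 h, and 7 were higher at 16 h against no hCG. These are 36.8%, 31.6% and 36.8% of the list, the first near and the last below the share over all genes in either direction. Every call from 8 h to 16 h and at 16 h against no hCG was a rise, where 11.8% and 20.8% of all genes rose. The list's median changes were 0.10, 0.18 and 0.13. No gene of this list fell in the later comparisons by limma's adjusted p, and 1 and 2 were lower at an unadjusted p under 0.05. The 3 that rose first were sulfotransferases. Hs6st2 and Hs6st1, which add 6-O sulfate, rose by 2.45 ± 0.20 and 2.44 ± 0.15 by 8 h, and Hs3st1, whose 3-O sulfate forms the antithrombin binding site, by 2.00 ± 0.18 (adjusted p = 1.38e-05, 3.38e-06 and 2.68e-05). Hs3st1 read 10.49 and 10.14 without hCG, 12.44 and 12.19 at 8 h, and 12.42 and 12.24 at 16 h. The heparan-cleaving enzyme gene Hpse and the chain-elongating gene Ext1 rose later, by 1.32 ± 0.19 and 1.26 ± 0.15 from 8 h to 16 h, though the second Ext1 probe set was not called. Ext1 had first fallen, with a change of −0.66 ± 0.15 by 8 h (adjusted p = 0.0066). Its change at 16 h against no hCG was 0.60 ± 0.15 (adjusted p = 0.0105). The 3 rises at 8 h were called whichever hCG 8h array was removed, but of the 4 falls 0 were left without the first and 1 without the second, which makes 3 and 4 calls in place of 7. The later 6 became 3 when the first hCG 8h array was removed, and the net 7 became 4 when the first hCG 16h array was.

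Of 14 chondroitin and dermatan sulfate genes, 5 rose and 2 fell by 8 h, 2 rose and 2 fell from 8 h to 16 h, and 7 were higher and 4 lower in the net comparison, or 50.0%, 28.6% and 78.6%, with medians of 0.02, −0.08 and 0.41. Chst15, which adds a second sulfate to chondroitin, rose by 3.98 ± 0.20, or 15.8-fold, by 8 h and fell by 1.09 ± 0.20 to 16 h (adjusted p = 1.07e-06 and 0.00471). The 4 calls from 8 h to 16 h became 2 when the second hCG 16h array was removed, and the net 11 became 7 when the first was. Of 18 other proteoglycan genes, 4 rose and 4 fell by 8 h, 5 rose and 2 fell from 8 h to 16 h, and 5 were higher and 3 lower in the net comparison, or 44.4%, 38.9% and 44.4%, with medians of −0.03, −0.06 and −0.16. The versican gene Vcan rose by 2.29 ± 0.18 by 8 h, the collagen XVIII gene Col18a1 by 2.31 ± 0.16 and the serglycin gene Srgn by 1.77 ± 0.16, while the osteomodulin gene Omd fell by 2.12 ± 0.18. Col18a1 and Srgn rose again from 8 h to 16 h, by 1.31 ± 0.16 and 1.24 ± 0.16, and Prg4, which encodes lubricin, rose by 3.37 ± 0.24. Vcan fell over that interval, with a change of −1.04 ± 0.18 (adjusted p = 0.00315). Prg4 had first fallen, with a change of −0.84 ± 0.24 by 8 h (adjusted p = 0.0213).

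**Figure D3:**
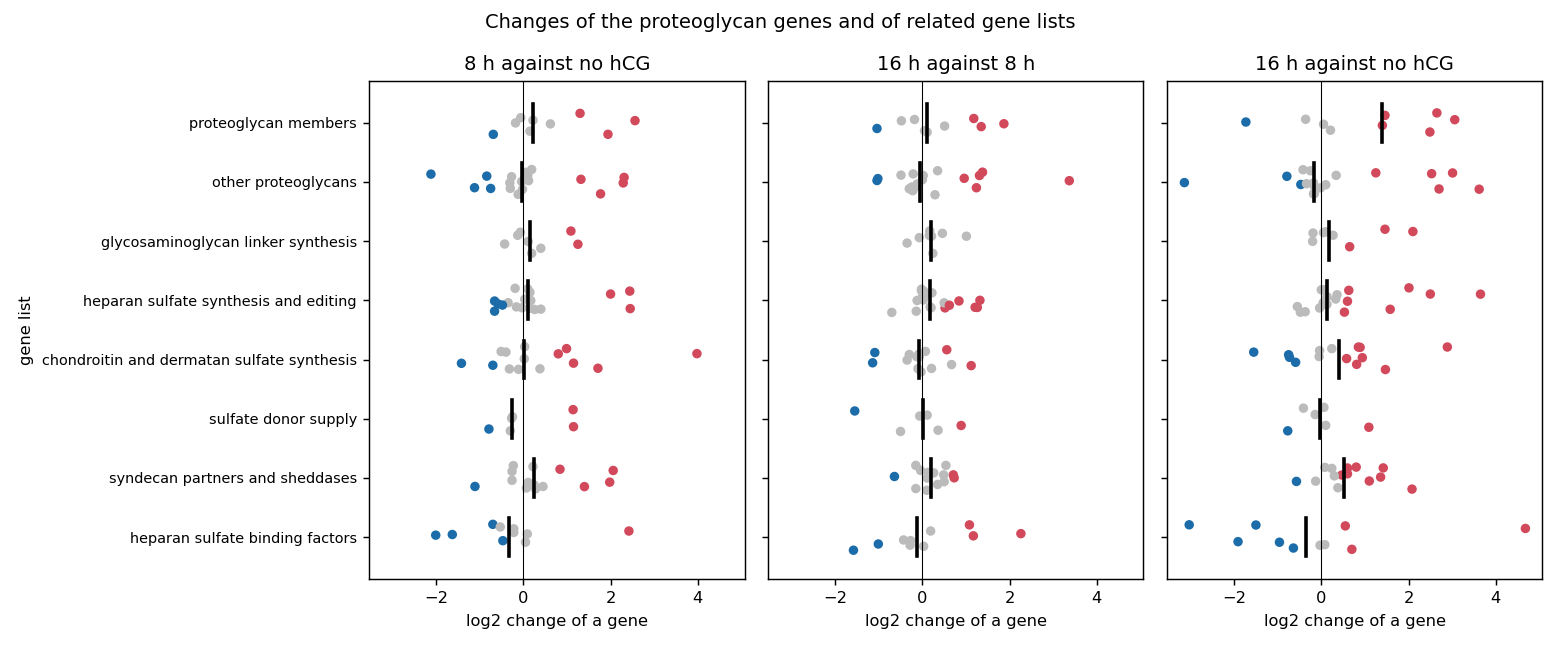
Log2 change of each tested gene in the 10-member set and in 7 related lists, in the 3 comparisons. Each point is 1 gene by its brightest probe set, red called higher, blue called lower, grey not called, with a random vertical offset, and black bars are list medians. The medians of the related lists lie between −0.34 and 0.53, and that of the members reaches 1.40 at 16 h against no hCG. Members and lists were chosen with earlier results of these data known.

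Genes of proteins that bind to syndecan tails or release syndecan ectodomains formed a further list. It also held the integrin genes Itgav and Itgb5 and the metalloprotease inhibitor gene Timp3, so its counts are not of tail binders and releasing enzymes alone. Timp3 was among the rises at 8 h (0.84 ± 0.16) and Itgb5 among the later ones (0.73 ± 0.15). Both were also higher in the net comparison, whereas Itgav was called in no comparison. Of 14 tested, 4 rose and 1 fell by 8 h, 2 rose and 1 fell from 8 h to 16 h, and 8 were higher and 1 lower in the net comparison. These are 35.7%, 21.4% and 64.3%, the first and second near the shares over all genes, with medians of 0.24, 0.19 and 0.53. Prkca, the protein kinase C alpha gene, rose by 2.06 ± 0.17 by 8 h, the membrane metalloprotease gene Mmp14 by 1.98 ± 0.15 and Sdcbp, which encodes the syndecan adaptor syntenin, by 1.40 ± 0.15. Prkca then fell, with a change of −0.64 ± 0.17 from 8 h to 16 h (adjusted p = 0.027). When 1 array was removed, the 3 calls from 8 h to 16 h became 0 (first hCG 8h array), 1 (second hCG 8h or either hCG 16h array) or 5 (either array without hCG), and the net 9 became 5 (either hCG 16h array). Of 10 heparan sulfate binding factors, 1 rose and 4 fell by 8 h, 3 rose and 2 fell from 8 h to 16 h, and 3 were higher and 5 lower in the net comparison, or 50.0%, 50.0% and 80.0%, with medians of −0.34, −0.12 and −0.34. The gene of the syndecan ligand pleiotrophin, Ptn, read 5.09 and 4.90 without hCG, 7.07 and 7.77 at 8 h, and 9.59 and 9.77 at 16 h on its brightest probe set. The first pair lay under the dim limit, so the size of its change against no hCG is uncertain. From 8 h to 16 h the difference was 2.26 ± 0.22 (adjusted p = 0.000132), with 1 of its 2 other tested probe sets called the same way. Serpinc1, the antithrombin gene, and Hbegf fell by 2.01 ± 0.21 and 1.63 ± 0.19 by 8 h.

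**Figure D4:**
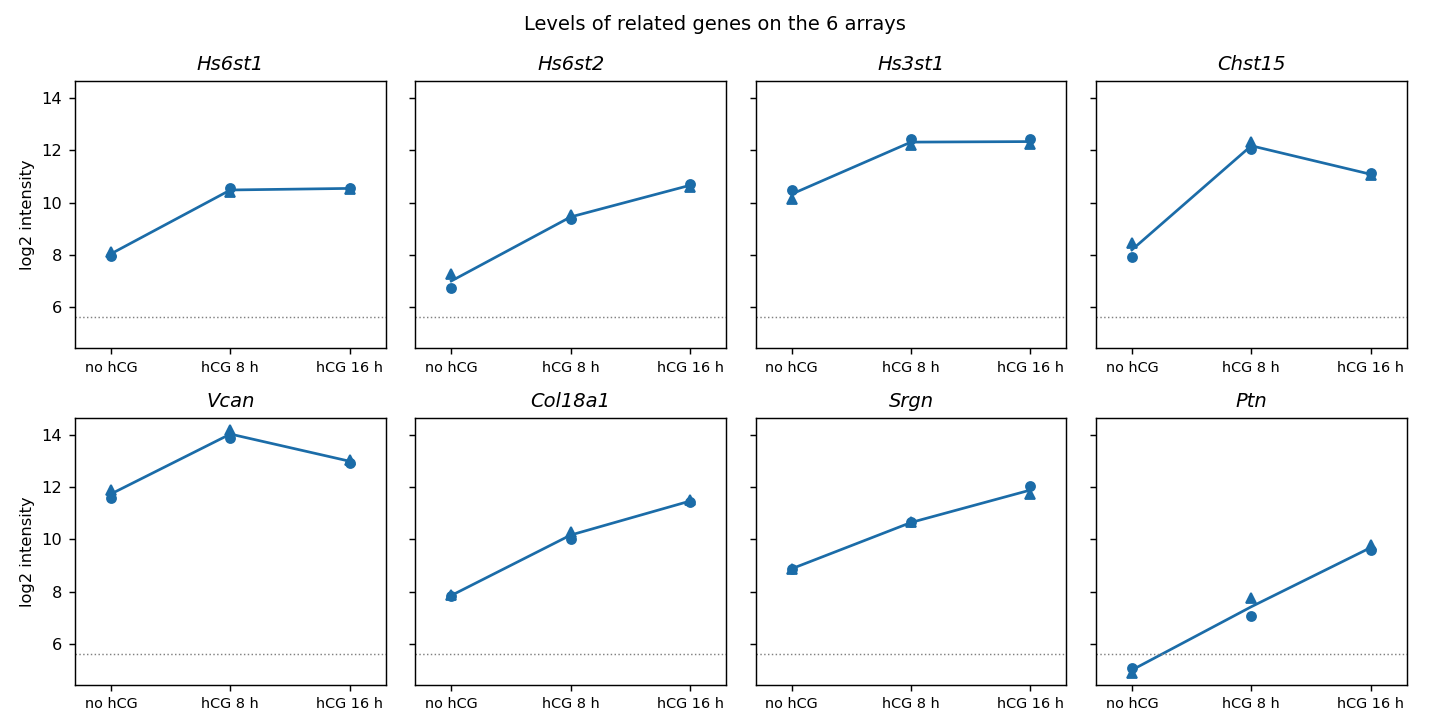
Log2 intensity on each array of 8 related genes, by their brightest probe sets, with circles for replicate 1, triangles for replicate 2, lines through group means and the dim limit dotted. Hs6st1 and Hs3st1 reach their 16 h level by 8 h, Chst15 and Vcan are highest at 8 h, and Hs6st2, Col18a1, Srgn and Ptn are highest at 16 h.

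Of 8 genes that start the sugar chains through a common linker or supply its precursor, 2 rose by 8 h, 0 were called from 8 h to 16 h and 3 were higher in the net comparison. These are 25.0%, 0.0% and 37.5%, each below the share over all genes in either direction, with medians of 0.15, 0.19 and 0.18. All of these calls were rises, where 16.9%, 11.8% and 20.8% of all genes rose in the 3 comparisons. The called genes of the list included Ugdh, which makes the UDP-glucuronic acid used by all these chains, at 1.25 ± 0.16 by 8 h. The 2 calls at 8 h became 1 when the second hCG 8h array or either hCG 16h array was removed. Limma gave 0 calls from 8 h to 16 h but 2 genes at an unadjusted p under 0.05, and 1 call when either array without hCG was removed. Of 6 genes of sulfate donor supply, 2 rose and 1 fell by 8 h, 1 rose and 1 fell from 8 h to 16 h, and 1 was higher and 1 lower in the net comparison, or 50.0%, 33.3% and 33.3%, with medians of −0.26, 0.02 and −0.04, and with no net call left when the first hCG 16h array was removed. Papss2, which makes the sulfate donor, rose by 1.14 ± 0.15 by 8 h and fell by 1.55 ± 0.15 to 16 h.

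For the 6 members called in at least 2 comparisons, the genes of most similar course were found by the Euclidean distance between mean-centred log2 values over the 6 arrays, among genes called in the same comparisons. They were Pcsk5 for Sdc1 (distance 0.30), Ms4a6b and F10 for Sdc3 (both 0.18), Pdia4 for Sdc4 (0.64), Efs for Gpc1 (0.32), Cd47 for Gpc4 (0.19) and Tedc1 for Dcn (0.19). Sdc4 had the most distant nearest gene of the 6 members. The distance also takes in differences between the arrays of a group, which exceeded the median on the brightest Sdc4 probe set. The eye-expressed small proteoglycan gene Nyx was the third nearest to Gpc1, at 0.34. With 6 arrays in 3 groups, many genes share such a course, and the distances describe these arrays only.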

How the data were processed

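Per the labels' protocols, total RNA from pooled complexes was labelled as biotinylated cRNA. The authors deposited 1 log2 value per probe set and array, a scale inferred from their range (3.32 to 15.5). Software, background correction and normalization are not given in the sources used here. Values were used as deposited. Of 45101 probe sets, 64 controls were left out. Names came from the platform annotation, with 1 symbol for 34945 probe sets, several for 932 and none for 9160. Probe sets under the 40th percentile of the mean (5.62) were not tested, which left 27022 probe sets and 13559 genes. Group means of all 6 arrays were fitted with limma 3.58.1 (lmFit, eBayes, R 4.3.3, 3 residual and 6.43 prior degrees of freedom), with two-sided tests and Benjamini-Hochberg adjustment over the tested probe sets. All adjusted p-values in the text come from this fit or its alternatives. The code was tested on simulated data. Alternatives were quantile normalization, subtracted array medians, no dim filter or one at the 60th percentile, no _x_, _s_ and _a_ probe sets, the replicate number as a block, eBayes with trend and robust, only the compared groups, the mean of a gene's probe sets, and each array left out.

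The members and all lists were chosen with earlier results of these data known. The named genes are the 10 members, up to 4 called genes of largest change per list and comparison (the text gives some of these), and the 3 nearest genes per member called in at least 2 comparisons. Listed genes without a named probe set were not analysed here. RefSeq promoters matched 6 of the 10 members by symbol. Strand was checked on 1485 overlapping pairs of opposite strand, all of which matched.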

Additional observations from a re-analysis of the deposited data

How the results depend on the processing

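Changes of the 9 tested members were recomputed under 15 alternatives in each comparison, including each array left out in turn. Of 210 values for the 14 called changes, 204 stayed called with the same sign and 6 lost the call, those of Dcn and Sdc4 given above, with no change of sign. Of 195 values for the 13 uncalled changes, 6 became called and 11 changed sign. With the mean of a gene's probe sets, Sdc4 was called at 8 h (0.94, adjusted p = 0.0455 in a range of 0.00937 to 0.912), and Sdc1 and Gpc4 from 8 h to 16 h (0.66 and −0.71, adjusted p = 0.0338 and 0.0294, in ranges up to 0.654 and 0.54). Hspg2 at 8 h turned to 0.09 with that mean. The number of members called was 3 to 4, 3 to 4 and 6 in the 3 comparisons over left-out arrays. Sign changes with an array left out were those of Sdc2 (−0.05 to 0.35 at 8 h and −0.01 to 0.11 from 8 h to 16 h), Bgn (−0.42 to 0.07 and −0.42 to 0.06) and Hspg2 (−0.21 to 0.09, −0.25 to 0.47 and, at 16 h against no hCG, −0.31 to 0.41). Where a group was left with 1 array, it was assumed to vary like the others.

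The replicate numbers do not show that arrays were paired. The replicate 1 minus 2 differences of tested probe sets correlated at 0.468 between no hCG and 8 h, 0.00103 between no hCG and 16 h and 0.135 between 8 h and 16 h. With a replicate block, Sdc4 at 8 h (0.62, adjusted p = 0.00937), Sdc1 from 8 h to 16 h (0.51, 0.0381) and Gpc4 from 8 h to 16 h (−0.48, 0.046) were called as well, so 5, 6 and 6 members were called.

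Among the related lists, linker calls at 8 h were 1 without _x_, _s_ and _a_ probe sets, 1 with only the compared groups and 1 to 2 over left-out arrays. From 8 h to 16 h they were 1 without those probe sets, with the replicate block, with only the compared groups or with the mean of probe sets, and 0 to 1 over left-out arrays. Calls of syndecan partners from 8 h to 16 h were 5 with only the compared groups and 0 to 5 over left-out arrays, and net calls 5 to 8. Over left-out arrays, heparan sulfate calls were 3 to 6, 3 to 7 and 4 to 8, chondroitin calls 2 to 5 from 8 h to 16 h and 7 to 10 net, and net sulfate donor calls 0 to 2. The causes were not tested. The signal over background is unknown, so changes that involve low values may be understated.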
